A study of Mus musculus with 9 samples.

Results

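The 10 genes described here carry out and control the handling of iron and heme in macrophages, and were taken by symbol from the 24411 genes of the expression table. All 10 of the 10 were in the table, and all 10 passed the filter on low values, which asked for 1 TPM or more in 3 or more of the 9 libraries and kept 11753 genes. They are Hmox1, Slc40a1, Ftl1, Fth1, Tfrc, Slc11a1, Slc11a2, Hfe, Ireb2 and Ncoa4. They were measured by bulk RNA-seq in 9 macrophage lines, with 1 library per line. The source tissue was yolk sac at E9.5 for the 3 YS lines, fetal liver at E14.5 for the 3 FL lines and bone marrow of adults for the 3 BM lines, and all mice were C57BL/6. The starting cells of each tissue were pooled from more than 1 mouse, and a line is the bulk culture of a separate dish or well, so lines of one group may share their mice and p-values measure the spread among these cultures. All 9 lines were grown in medium with serum and recombinant human M-CSF, the growth factor of macrophages, and had been passaged for months. The mice of this strain carry an inactivating change in the protein made from Slc11a1, so its transcript level does not report a working transporter in any group.

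Macrophages take up senescent red cells, break down their heme and return the iron to the blood, and they can also hold iron back from microbes. Heme oxygenase opens the heme ring and frees iron. The iron is stored in ferritin, a hollow shell built from heavy and light chains, or leaves through ferroportin, the only known iron exporter of mammalian cells. Iron bound to transferrin enters through the transferrin receptor and crosses the endosomal membrane through a divalent metal transporter. When iron is scarce, the iron regulatory proteins bind a hairpin in certain mRNAs, the iron-responsive element, and block translation where the hairpin lies in the 5′ UTR or protect the mRNA where it lies in the 3′ UTR. A transcript level therefore does not give the protein level of these genes.

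The hairpin sequences are printed to show which members hold the letters of this element. The GENCODE M21 transcripts (GRCm38) were searched on the sense strand for a C, 5 bases, CAGTGN and 5 bases that pair with the first 5. With all 5 pairs formed, 4 of the 10 members held the motif, against 294 of 21877 protein-coding genes (1.34%). When 4 pairs were enough, 6 of the 10 members held it, against 2340 genes (10.7%), which adds a site in the 3′ UTR of Slc11a2 and one in the coding sequence of Slc11a1. In the sequences that follow, the capitals mark the CAGTGN loop, each sequence has 30 bases, and a match is a description of letters only.
Fth1 5′ UTR, plus strand, chr19:9982731-9982760: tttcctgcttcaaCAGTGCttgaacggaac
Ftl1 5′ UTR, minus strand, chr7:45459779-45459808: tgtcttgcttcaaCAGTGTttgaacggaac
Slc40a1 5′ UTR, minus strand, chr1:45925465-45925494: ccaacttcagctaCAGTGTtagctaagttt
Tfrc 3′ UTR, plus strand, chr16:32631218-32631247: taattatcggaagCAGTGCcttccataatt
Slc11a2 3′ UTR, minus strand, chr15:100395153-100395182: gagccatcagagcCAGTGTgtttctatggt
The elements of the ferritin chains were identical at 27 of 30 bases. Tfrc held 4 such sites with all 5 pairs in its 3′ UTR, of which the first is shown.

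The libraries were checked before the members were compared. All 10 genes of a macrophage marker list passed the filter, and Csf1r, the M-CSF receptor, lay between 1086 and 2441 TPM. YS line 1 had the lowest Csf1r, Cd68 (1018 TPM) and Lyz2 (1163 TPM) of all 9, while its Mertk (21.9 TPM) and Fcer1g (2559 TPM) were the highest of the YS lines. Of the 10 macrophage genes, Lyz2 was called lower in YS lines than in BM and FL lines (-1.60 and -2.37), Mertk higher in FL lines than in BM and YS lines (1.99, and -1.82 for YS minus FL) and Fcgr1 higher in YS and FL lines than in BM lines (4.65 and 4.02), so 3 of the 10 moved with a group. Of 15 erythroid markers, 9 stayed under 1 TPM in every library, and the summed level was 15.9 to 398 TPM in BM lines, 40.3 to 56.5 TPM in FL lines and 32.6 to 57.7 TPM in YS lines. The top of these values is BM line 2, which alone held 215 TPM of the globin Hba-a1 and 43.0 TPM of the embryonic globin Hbb-y, while the red cell genes Slc4a1 and Gata1 were at most 0.33 TPM in all 9 libraries. Other markers of this list were called lower in BM lines. Among them, Epor was called higher in YS and in FL lines than in BM lines (1.54 and 1.88, limma adjusted p = 0.0770 and 0.0518). In each of the lists for hepatocytes (8 genes), fibroblasts and endothelium (9), granulocytes and mast cells (7) and lymphoid cells (6), 6 genes were under 1 TPM in every library, and the highest single value was 54.4 TPM of the endothelial gene Kdr in YS line 3. Kdr was 0.29, 16.1 and 54.4 TPM in YS lines and 17.4 to 50.4 TPM in FL lines against at most 0.86 TPM in BM lines, and was called higher in both (3.07 and 4.35). The part of these marker genes in the members' differences was not tested. BM line 2 also held a median 14.1% of the level of YS line 2 over the 45 genes that were under 0.5 TPM in the other BM lines and at least 20 TPM in YS line 2. This share was taken against YS line 2 only, which itself had 0 TPM of Hba-a1 and 4.52 TPM of Hba-a2. Member results that turn on YS line 1 or BM line 2 are given with and without them. TPM keeps no read depth, so every error given here comes from the spread among lines. An SD is that of a single group. The SE and intervals of the limma tests use a spread that all groups share for a gene, moderated towards that of other genes.

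Differences were tested on log2(TPM + 1) with limma over all 9 libraries, and a gene was called at a false discovery rate (FDR) under 0.1 and more than 2-fold. Between YS and BM lines, 2 of the 10 members were called, both lower in YS lines (Fth1 and Slc11a1), while 12.8% of all genes tested were called (7.57% with YS lines higher and 5.22% with YS lines lower). Between FL and BM lines, 2 of 10 were called (Slc40a1 higher and Fth1 lower in FL lines), against 10.3% of all genes (6.01% higher and 4.3% lower). Between YS and FL lines, 1 of 10 was called (Hmox1, lower in YS lines), against 3.79% of all genes (1.95% higher and 1.85% lower). With 10 members, counts of 1 or 2 near these shares are no result about the members as a group. On the log2 scale the median member difference was -0.41 for YS minus BM, 0.07 for FL minus BM and -0.54 for YS minus FL, while the median of all genes tested was 0.11, 0.09 and 0.02. The comparisons share libraries, so their results are not independent. Since each library is a bulk sample, fewer cells expressing a gene and less RNA per cell cannot be told apart.

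**Figure D1:**
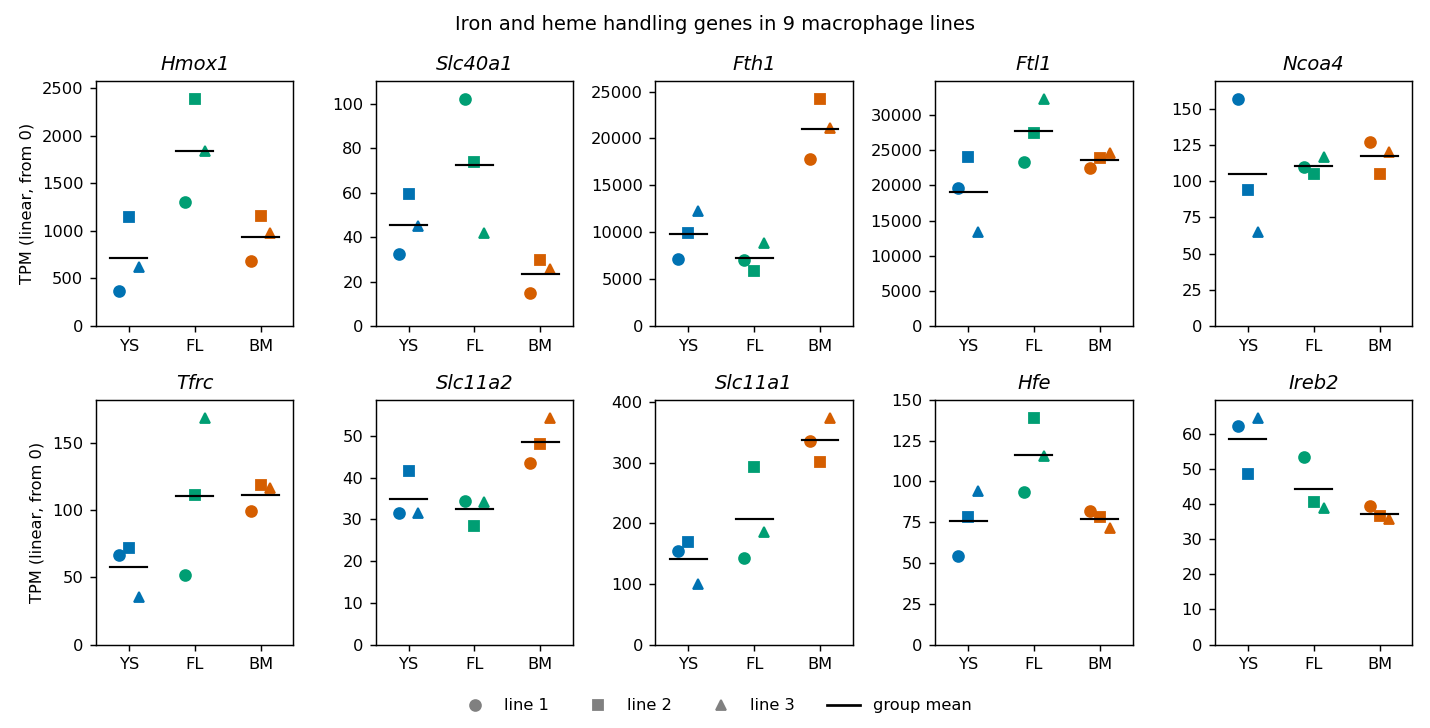
TPM of the 10 genes (vertical axes, linear from 0) in YS, FL and BM lines (horizontal axes), with a point for each line and a bar at the group mean of 3 lines. The 3 BM lines lie above all other lines for Fth1, Slc11a1 and Slc11a2, and below all others for Slc40a1.

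Hmox1, the inducible heme oxygenase, was highest in FL lines. Its level was 1307, 2382 and 1835 TPM in FL lines 1 to 3, 367, 1146 and 624 TPM in YS lines and 679, 1155 and 979 TPM in BM lines. All 3 FL lines were above all 6 other lines, while YS and BM lines overlapped. YS lines were 2.79-fold lower than FL lines (log2 difference -1.48, SE 0.40, limma adjusted p = 0.0699). This call ended under 10 of 19 alternatives, including without YS line 1 (-1.08, limma adjusted p = 0.115) and without BM line 2, where the size was the same and the limma adjusted p was 0.106. The excess of FL over BM lines was 0.96 on the log2 scale (SE 0.40) and did not pass (limma adjusted p = 0.133), nor did the difference of -0.51 between YS and BM lines (95% interval -1.44 to 0.41, limma adjusted p = 0.365).

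Slc40a1, which encodes ferroportin, was lowest in BM lines. BM lines 1 to 3 had 14.7, 29.5 and 25.6 TPM, YS lines 32.3, 59.6 and 45.1 TPM and FL lines 102, 73.7 and 42.1 TPM. No BM line reached the lowest YS or FL line, and the YS and FL lines overlapped. FL lines rose over BM lines by 2.97-fold (log2 difference 1.57, SE 0.37, limma adjusted p = 0.0199), a call kept under all 19 alternatives. YS lines were 0.96 above BM lines on the log2 scale (SE 0.37, limma adjusted p = 0.0870), which passed the FDR but stayed just short of 2-fold. It was called without BM line 2 (1.15, limma adjusted p = 0.0924) and without YS line 1 (1.18, limma adjusted p = 0.0643). Over all single lines left out this YS minus BM difference ranged from 0.67 to 1.18, with a highest limma adjusted p of 0.262, so its FDR pass was not kept.

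The ferritin chains were the most abundant members and among the most abundant transcripts of these cells. Together they made up 4.47% ± 0.40 (SD, n = 3) of all TPM in BM lines, 3.49% ± 0.56 in FL lines and 2.88% ± 0.45 in YS lines. Ftl1, the light chain that helps to form the iron core, was the highest gene of the whole table in 8 of 9 libraries. It ranged from 13395 TPM in YS line 3 to 32251 TPM in FL line 3, and the 3 groups overlapped. None of its comparisons was called, with limma adjusted p-values of 0.299, 0.584 and 0.185 for YS against BM, FL against BM and YS against FL lines.

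Fth1, the heavy chain that oxidises iron on entry, separated the BM lines from the other lines. BM lines 1 to 3 had 17816, 24191 and 21142 TPM, YS lines 7164, 9944 and 12255 TPM and FL lines 7033, 5835 and 8878 TPM. Every BM line was above every other line, and in BM line 2 Fth1 was the highest gene of the library. YS and FL lines overlapped, and their difference was not called (0.42 for YS minus FL, limma adjusted p = 0.312). The level fell by 1.13 on the log2 scale in YS lines relative to BM lines (SE 0.25, limma adjusted p = 0.0128) and by 1.55 in FL lines (SE 0.25, limma adjusted p = 0.00389). Without YS line 1 the YS difference was -0.92, under 2-fold (limma adjusted p = 0.0207), and without BM line 2 the differences were -1.02 and -1.44. Both ferritin genes have many processed pseudogenes, and reads shared with such copies are split by estimate, so their TPM is uncertain to that extent.

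The balance of the chains can be compared within a library, because TPM is per transcript length. The Fth1 to Ftl1 ratio was 0.792, 1.01 and 0.857 in BM lines, 0.302, 0.213 and 0.275 in FL lines and 0.364, 0.413 and 0.915 in YS lines. The FL lines lay below all others, and YS line 3 lay within the BM range, apart from the other YS lines. The log2 ratio differed by -1.76 between FL and BM lines (exact permutation test, two-sided p = 0.1, the smallest p that 3 lines against 3 allow, adjusted p = 0.2 over 6 tests). It differed by 0.99 between YS and FL lines (exact p = 0.1, adjusted p = 0.2) and by -0.77 between YS and BM lines (exact p = 0.3, adjusted p = 0.36).

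**Figure D2:**
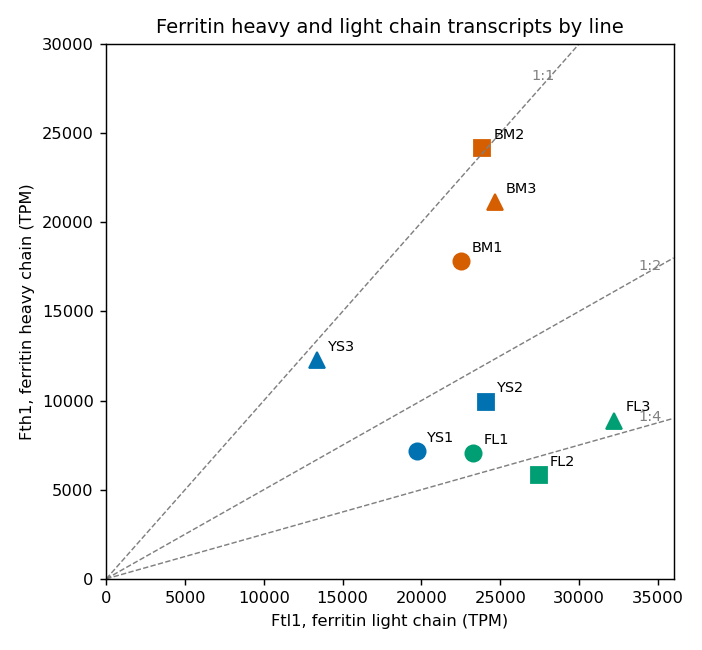
Fth1 TPM (vertical axis) against Ftl1 TPM (horizontal axis), with a labelled point for each of 9 lines and dashed lines at fixed ratios. BM lines and YS line 3 lie between the 1:2 and 1:1 lines or on the latter, and FL lines lie near the 1:4 line.

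Fth1 lies on chromosome 19, whose genes as a whole were lower in YS and FL lines. Over the 404 tested genes of chromosome 19, the median log2 difference was -0.52 between YS and BM lines and -0.79 between FL and BM lines, against 0.12 and 0.10 over the 11349 other genes. Of the chromosome 19 genes, 19.1% and 24.5% were called lower, against 4.73% and 3.58% of the others. Fth1 was 0.61 and 0.76 below the chromosome median, and 67 and 32 of the 404 genes, Fth1 included, were as low as Fth1 or lower. The 10 tested genes next to Fth1 in order of position, taken equally from both sides, had a median of 0.05 and -0.52. The part of the chromosome in the Fth1 difference was not tested. No other member lies on chromosome 19.

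**Figure D3:**
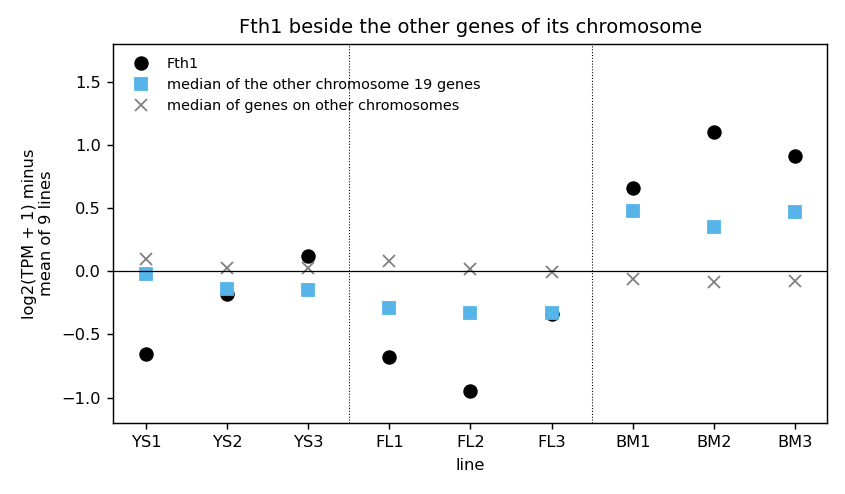
Log2(TPM + 1) minus the mean of 9 lines (vertical axis) in each line (horizontal axis) for Fth1, for the median of the other chromosome 19 genes and for the median of genes on other chromosomes. In BM lines Fth1 lay at 0.66 to 1.10, above the chromosome median of 0.35 to 0.47.

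Ncoa4, the receptor that carries ferritin to lysosomes for iron release, had the most even levels between groups. BM lines had a mean of 117 ± 11.3 TPM (SD, n = 3), FL lines of 111 ± 5.87 TPM and YS lines of 105 ± 46.9 TPM. The YS lines alone spread widely, from 65.0 TPM in line 3 to 157 TPM in line 1. The YS minus BM difference was -0.24 (95% interval -0.85 to 0.37), and no comparison was called.

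Tfrc, the transferrin receptor, was lowest in YS lines. YS lines 1 to 3 had 66.4, 71.8 and 35.3 TPM, FL lines 51.5, 111 and 169 TPM and BM lines 99.5, 118 and 117 TPM. All YS lines were below all BM lines, and FL lines overlapped both groups. The YS minus BM difference was -0.99 (SE 0.41) and missed the FDR (limma adjusted p = 0.103). It was called when libraries were scaled by median of ratios (-1.11, limma adjusted p = 0.0879) or by quantile normalization (-1.11, limma adjusted p = 0.0825). Relative to Fth1, Tfrc was 0.559%, 0.489% and 0.552% in BM lines, 0.733%, 1.90% and 1.90% in FL lines and 0.927%, 0.722% and 0.288% in YS lines. All FL lines had a higher Tfrc to Fth1 ratio than all BM lines, by 1.38 on the log2 scale (exact permutation test, two-sided p = 0.1, adjusted p = 0.2 over 6 tests).

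Slc11a2, the divalent metal transporter of the transferrin cycle, was highest in BM lines. BM lines 1 to 3 had 43.6, 48.0 and 54.4 TPM, YS lines 31.5, 41.6 and 31.5 TPM and FL lines 34.4, 28.5 and 34.2 TPM. Both groups lay below all BM lines, by -0.48 in YS lines (SE 0.15, limma adjusted p = 0.0454) and -0.57 in FL lines (SE 0.15, limma adjusted p = 0.0295). These differences passed the FDR and are under 2-fold. With single lines left out, their highest limma adjusted p was 0.161 for YS against BM lines and 0.123 for FL against BM lines, so neither pass was kept throughout. YS and FL lines differed by 0.10 (95% interval -0.25 to 0.44).

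Slc11a1, the metal transporter of the phagosome known as NRAMP1, was also highest in BM lines. BM lines had 336, 302 and 374 TPM, YS lines 154, 169 and 101 TPM and FL lines 143, 294 and 186 TPM. All BM lines were above all others, FL line 2 by little. YS lines fell by 1.28 on the log2 scale relative to BM lines (SE 0.28, limma adjusted p = 0.0122), a call kept under all 19 alternatives. The FL minus BM difference of -0.76 (SE 0.28, limma adjusted p = 0.0893) passed the FDR without reaching 2-fold, and was -1.04 without FL line 2 (limma adjusted p = 0.0261). Over all single lines left out this FL minus BM difference ranged from -1.04 to -0.52, with a highest limma adjusted p of 0.242.

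Hfe, the MHC class I-like protein that binds the transferrin receptor, was highest in FL lines. FL lines had 93.7, 139 and 116 TPM, BM lines 82.1, 78.0 and 71.5 TPM and YS lines 54.5, 78.4 and 94.3 TPM. FL lines lay above all BM lines, and YS line 3 was just above the lowest FL line. The FL minus BM difference was 0.57 (SE 0.21, limma adjusted p = 0.0939), under 2-fold, and with single lines left out its limma adjusted p rose as high as 0.249. The YS minus FL difference was -0.63 (SE 0.21, limma adjusted p = 0.111).

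Ireb2, one of the iron regulatory proteins, had its highest levels in YS lines. YS lines had 62.3, 48.7 and 64.8 TPM, FL lines 53.5, 40.8 and 39.1 TPM and BM lines 39.4, 36.8 and 35.8 TPM. All YS lines were above all BM lines (0.63, SE 0.15, limma adjusted p = 0.0199), a difference under 2-fold. FL lines overlapped both groups. The other iron regulatory protein, Aco1, was at 41.8 to 45.7 TPM in FL lines, above the 21.8 to 34.5 TPM of YS lines and the 27.4 to 30.0 TPM of BM lines, and its FL minus BM difference of 0.59 (limma adjusted p = 0.0302) was under 2-fold.

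With no fold threshold, 5 of 10 members passed the FDR in YS against BM lines and 5 of 10 in FL against BM lines, where 37.9% and 27.6% of all genes did, and 1 of 10 in YS against FL lines, where 12.8% did. The values of both groups did not overlap for 6 of 10 members in YS against BM lines and for 6 of 10 in FL against BM lines, where this held for 49% and 49.5% of all genes. It held for 1 of 10 members, Hmox1, in YS against FL lines, where it held for 26.1% of all genes.

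**Figure D4:**
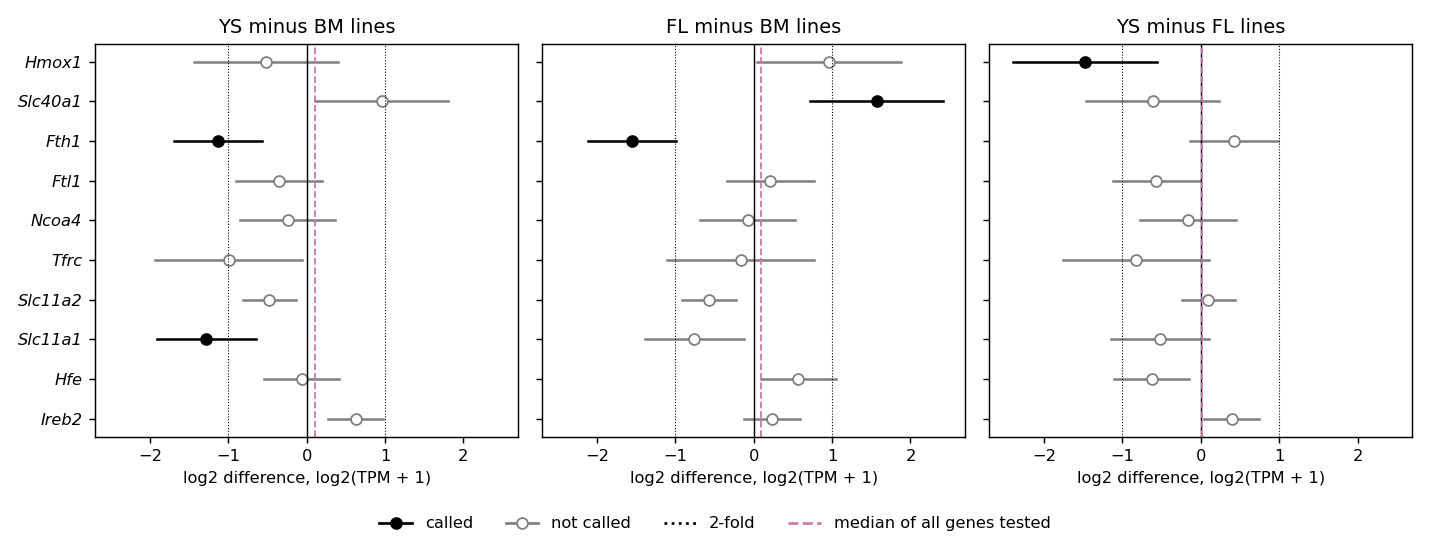
Log2 differences between groups (horizontal axis, log2(TPM + 1)) for the 10 genes (vertical axis), with 95% intervals from limma, where filled points are called genes. Filled points are Fth1 and Slc11a1 in YS minus BM lines, Fth1 and Slc40a1 in FL minus BM lines and Hmox1 in YS minus FL lines.

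The rest of the pathway was read from 7 lists of further genes, of which 70 passed the filter. In YS against BM lines 16 of the 70 were called (8 up and 8 down in YS lines, with 12.8% of all genes called), and 8 of the 16 kept their call with any 1 line left out. In FL against BM lines 12 were called (7 up and 5 down, with 10.3% of all genes called), and 11 of the 12 kept it. In YS against FL lines 5 were called (1 up and 4 down in YS lines, with 3.79% of all genes called), and 1 of the 5, Cat, kept it. The median difference of the 70 was -0.19, 0.07 and -0.11, beside 0.11, 0.09 and 0.02 for all genes.

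In iron import, 3 of 6 tested genes were called against BM lines in both groups. The shares over all genes were 12.8% for YS and 10.3% for FL lines, and 6 genes are too few for a result about the list. Trf, transferrin itself, had 77.1, 59.7 and 125 TPM in YS lines and 119, 115 and 92.6 TPM in FL lines, against 0.13, 6.52 and 0.45 TPM in BM lines. The differences were 5.19 and 5.56 on the log2 scale (limma adjusted p = 0.00183 and 0.00114), and the one BM line above 1 TPM was BM line 2, the library with globin RNA. Without BM line 2 the differences were 6.04 and 6.41. Slc39a8, a zinc transporter that also moves iron, was 22.5 to 29.3 TPM in FL lines, 8.46 to 15.5 TPM in YS lines and 2.32 to 5.81 TPM in BM lines, and all 3 comparisons were called, of which only FL against BM lines stayed so with any line left out. Steap3, the ferrireductase that readies endosomal iron for Slc11a2, went the other way, with 127 to 190 TPM in BM lines, 27.0 to 48.9 TPM in YS lines and 44.9 to 66.2 TPM in FL lines (log2 differences -2.15 and -1.59, limma adjusted p = 0.00146 and 0.00344).

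In heme breakdown and transport, 9 genes were tested. Hmox2, the constitutive heme oxygenase, was 189 to 205 TPM in FL lines and 87.0 to 98.8 TPM in BM lines (1.07, limma adjusted p = 0.000788). Its FL lines were above all others, as for Hmox1. Slc48a1, which moves heme out of the phagolysosome, was 140 to 235 TPM in YS lines, 355 to 489 TPM in FL lines and 300 to 397 TPM in BM lines. Its YS minus FL difference was called (-1.16, limma adjusted p = 0.0265), and this call was lost without YS line 3 (-0.96 or more negative over all lines left out). Its YS minus BM difference of -0.92 passed the FDR under 2-fold (limma adjusted p = 0.0140). Lrp1, the receptor for heme bound to hemopexin, was 330 to 383 TPM in YS lines and 643 to 758 TPM in BM lines (-1.02, limma adjusted p = 0.00129), a difference so near 2-fold that it was lost without YS line 1 (-0.99), YS line 3, BM line 1 or BM line 3. The YS minus FL difference of Lrp1 passed the FDR under 2-fold (-0.76, limma adjusted p = 0.0157). The biliverdin reductases Blvra and Blvrb and the heme exporter Flvcr1 were called in no comparison. Blvrb was 161 to 322 TPM in YS lines, 349 to 581 TPM in FL lines and 408 to 452 TPM in BM lines. Its differences for YS minus BM and YS minus FL passed the FDR under 2-fold (-0.93 and -0.90, limma adjusted p = 0.0322 and 0.0839). Cd163, the receptor for hemoglobin bound to haptoglobin, was at most 0.06 TPM in all 9 libraries.

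Among regulators, Spic, a transcription factor of red pulp macrophages, was 14.6, 8.81 and 13.3 TPM in BM lines and at most 1.36 TPM in YS and FL lines (-3.06 and -3.32, limma adjusted p = 0.00230 and 0.00137). Slc40a1 was lowest in those same BM lines. Epas1, the hypoxia factor HIF-2α, was 32.9 to 55.6 TPM in YS lines and 38.6 to 53.0 TPM in FL lines against 12.7 to 19.1 TPM in BM lines (1.37 and 1.50, limma adjusted p = 0.00442 and 0.00289). Nfe2l2, which encodes the Hmox1 activator NRF2, and Bach1, the heme-binding repressor of Hmox1, were called in no comparison. Both were higher in FL than BM lines by differences that passed the FDR under 2-fold (0.37 and 0.62, limma adjusted p = 0.0339 and 0.0158). Keap1, which holds NRF2 back, was called higher in YS than BM lines (1.17, limma adjusted p = 0.0377), with YS line 3 at 208 TPM and the other YS lines at 83.0 and 82.8 TPM, and the call was lost without YS line 3, BM line 1 or BM line 3 (lowest difference 0.74).

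Of 14 NRF2 targets outside iron handling, 5 were called in YS against BM lines (4 lower, 1 higher), against 12.8% of all genes. FL against BM lines gave 1 call (lower), against 10.3% of all genes. YS against FL lines gave 3 calls (2 lower, 1 higher), against 3.79% of all genes. Counts in so small a list are no result about the list. Nqo1, a quinone reductase, was 26.5 to 38.5 TPM in BM lines and at most 0.38 TPM in YS lines (-4.88, limma adjusted p = 0.00617). FL line 2 had 14.6 TPM of Nqo1 and the other FL lines at most 0.30 TPM, and the FL minus BM difference was -3.58, or -4.81 without FL line 2. Gclm, a subunit of the enzyme that starts glutathione synthesis, was 51.3, 187 and 71.4 TPM in YS lines and 251, 509 and 276 TPM in FL lines (-1.88, limma adjusted p = 0.0528), a call lost without FL line 2 or FL line 3. Against BM lines it was called lower in YS lines (-1.35, limma adjusted p = 0.0528), and this was lost without YS line 1 (-0.97, limma adjusted p = 0.130), YS line 3 or any BM line. Srxn1 and Me1 were called lower in YS than BM lines (-1.39 and -2.33). Me1 was 2.93 TPM in YS line 1 and 34.1 and 22.7 TPM in the other YS lines, its difference was -1.37 without YS line 1 (limma adjusted p = 0.0237), and its call was lost without BM line 1 or 3. Cat, catalase, was called lower in YS than FL lines (-1.37). Slc7a11, the cystine importer, was the exception in direction among the called targets, higher in YS than in BM (1.12) and FL lines (1.54). But these calls held in 3 and 1 of the 9 fits with a line left out (0.69 and 1.11 without YS line 1, not called). Osgin1 was also higher in YS than FL lines, by a difference that passed the FDR under 2-fold (0.62, limma adjusted p = 0.0734).

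**Figure D5:**
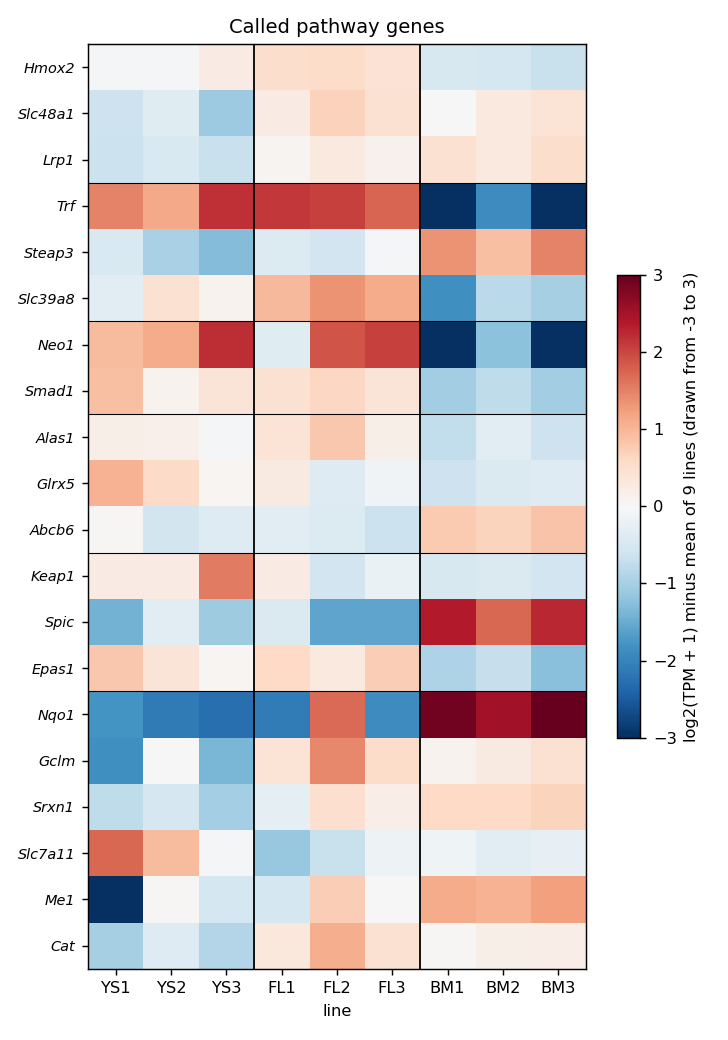
Log2(TPM + 1) minus the mean of 9 lines (color scale, drawn from -3 to 3) for 20 of the pathway genes called in at least 1 comparison (vertical axis) in each line (horizontal axis), with horizontal rules between lists. Trf, Neo1, Smad1, Slc39a8 and Epas1 are lower in the 3 BM lines, and Steap3, Abcb6, Spic and Nqo1 are higher there.

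In the hepcidin axis, Neo1, a co-receptor for bone morphogenetic proteins, was 19.4 to 48.1 TPM in YS lines and 7.22 to 43.3 TPM in FL lines against 0.10, 3.52 and 0.04 TPM in BM lines, with BM line 2 again the highest of its group (4.04 and 3.81, limma adjusted p = 0.00791 and 0.0105). Without BM line 2 these were 4.74 and 4.50. Smad1, which carries that signal to the nucleus, was 6.67 to 8.39 TPM in BM lines, 19.8 to 23.3 TPM in FL lines and 16.2 to 28.7 TPM in YS lines (1.42 and 1.44, limma adjusted p = 0.00302 and 0.00258). Hamp, which encodes hepcidin, the hormone that removes ferroportin from the membrane, was listed at 0 in 8 libraries and at 0.54 TPM in YS line 3. Hamp2, Hjv, Tmprss6 and Bmp6 of the same list were at 0 in all 9 libraries, and Tfr2 was at most 0.21 TPM. Fbxl5, the iron-sensing factor that degrades Ireb2, was called in no comparison and stood at 35.8 to 51.4 TPM over the 9 lines. In the list of storage, chaperones and oxidases, 0 of 3 tested genes were called in any comparison, Pcbp1 and Cp among them. Over all genes, 12.8%, 10.3% and 3.79% were called in the 3 comparisons.

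The genes most like a member in level over the 9 libraries were listed for the 5 members that varied most, as a description over libraries that share their groups. For Hmox1 these were Lmln, Txndc17 and Ghdc (Pearson's r 0.962, 0.960 and 0.957). For Slc40a1 they were Slc35a1, Rac3 and 9330179D12Rik (0.954, 0.952 and 0.944), and for Fth1 A330074K22Rik, Ptges and Ercc1 (0.981, 0.974 and 0.973). For Tfrc they were Pnpla7, Smad7 and Nlrp1c-ps (0.944, 0.933 and 0.930), and for Slc11a1 Sgsm2, Lhfpl2 and Pcdhb20 (0.980, 0.974 and 0.973). None of these 15 genes is a member or in a pathway list.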

How the data were processed

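Poly(A) RNA of 9 macrophage lines (3 groups, 3 lines each, 100 ng/mL M-CSF) was sequenced by the authors as directional single reads of 75 nt. The authors deposited 1 table of TPM for 24411 gene symbols, a value scaled to transcript length and to the same total in each library. Submitters' processing notes name Trim Galore 0.6.6, STAR 2.7.9a and RSEM 1.3.3; the genome build and annotation are not given in the sources used here. Every column matched 1 line by its label.

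From the TPM, log2(TPM + 1) was fitted with limma 3.58.1 in R 4.3.3 (all 9 libraries, group as the only term, intensity trend, Benjamini-Hochberg over the 11753 genes that reached 1 TPM in 3 or more libraries; called at FDR under 0.1 and more than 2-fold, the thresholds of the study's methods). This scale understates changes of low genes. Ratios were compared by exact two-sided permutation tests. Tested on simulated data of the YS-BM comparison (11753 genes, 200 changed 4-fold), the limma step called 179 of the 200 (89.5%) and 8 unchanged genes. The changed genes were drawn only from genes with a mean log2(TPM + 1) over 2, so the recovery of low genes and of smaller changes was not measured. Symbols were matched to RefSeq (GRCm38.p6) for chromosomes, and motifs to GENCODE M21 transcripts.

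The members, the gene lists and the tests were chosen with earlier results of these data known. Named were all members, each pathway gene called in at least 1 comparison, a short list of pathway genes whatever their call, and the 3 genes most like each member whose log2 SD was at least 0.5. 1 called pathway gene and 1 marker gene are not reported here. Cd163 and the marker genes were named after their values were seen. Alternatives changed the pseudocount, filter, scaling, trend, libraries in the fit, thresholds and lines left out. Lines share numbers 1 to 3 across groups, with no statement of pairing, and same-numbered lines did not deviate together (r from -0.12 to 0.09). Other assays of the study were not used here.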

Additional observations from a re-analysis of the deposited data

How the results depend on the processing

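Depth is unknown and each group has 3 lines, so small differences of single members could not be resolved. Under the alternatives, 543 values of single members kept direction and side of the threshold, 14 lost a call, 6 gained one and 7 turned. Quantile normalization moved the median of all genes between YS and BM lines from 0.11 to -0.01, and the split of called genes from 890 higher and 614 lower to 724 and 763 (median-of-ratios scaling, 765 and 741). Between FL and BM lines the split went from 706 and 505 to 592 and 593 (623 and 583). Quantile normalization sets the highest gene of each library equal, so Ftl1 became 0.24 for YS minus BM and 0 for YS minus FL, and Fth1 between YS and BM lines -0.39 (limma adjusted p = 0.31), while 2 members were still called, Slc11a1 and Tfrc. With no filter on low values, Fth1 lost its calls (limma adjusted p = 0.212 and 0.127), and the cause was not tested. Leaving out single lines turned values that were not called. Hfe in YS minus BM ranged from -0.23 to 0.16 (without YS line 1), Ncoa4 from -0.57 to 0.055 in YS minus BM and from -0.49 to 0.13 in YS minus FL (both highest without YS line 3), Tfrc in FL minus BM from -0.55 to 0.30 (without FL line 1) and Slc11a2 in YS minus FL from -0.035 (without YS line 2) to 0.16. The YS minus BM difference of the Tfrc to Fth1 ratio, 0.13, became -0.72 under quantile normalization and ranged from -0.21 (without YS line 1) to 0.63 over single lines left out.

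Called members numbered 1 with no filter and 5 with no fold threshold in YS against BM lines, again 1 and 5 in FL against BM lines, and 0 in YS against FL lines with no filter, with the 6 libraries alone or at FDR under 0.05. By limma, 10 members had 6, 6 and 4 unadjusted p-values under 0.05 in the 3 comparisons. Leaving out single lines gave 0 to 2 members between YS and FL lines, with 0 when any of YS lines 1 and 3, FL lines 2 and 3 or a BM line was left out and 2 without FL line 1 (Hmox1 and Tfrc). Called pathway genes between YS and BM lines numbered 40 with no fold threshold and 10 to 18 over left-out lines (10 without BM line 1). Between FL and BM lines they numbered 29 with no fold threshold. Between YS and FL lines they numbered 3 at pseudocount 4 or with no filter, 0 with 6 libraries alone, 2 at FDR under 0.05, 14 with no fold threshold, and 2 to 6 over left-out lines (2 without FL line 2 or FL line 3, 3 without YS line 1 or BM line 3). With the replicate number as a block, 2, 2 and 1 members and 15, 12 and 4 pathway genes were called in the 3 comparisons; the numbers do not pair the lines, and not every line correlated best with its own number.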

Other observations

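Heme synthesis and mitochondrial iron, 20 tested genes, moved in both directions between groups. Alas1, the first enzyme of heme synthesis, was 63.1 to 98.1 TPM in FL lines and 33.1 to 43.9 TPM in BM lines (log2 difference 1.03, limma adjusted p = 0.00513), a call lost without FL line 2 (0.86), BM line 1 or BM line 3. Fech, which inserts iron into the ring as the last step, was 94.8 to 120 TPM in BM lines, above the 47.2 to 65.7 TPM of YS lines and the 68.2 to 75.1 TPM of FL lines, with differences of -0.96 and -0.58 that passed the FDR under 2-fold (limma adjusted p = 0.00339 and 0.0237). Abcb6, a porphyrin transporter, was 28.3 to 32.3 TPM in BM lines and 10.8 to 17.9 TPM in the others (-1.07 and -1.22, limma adjusted p = 0.00442 and 0.00249), the first lost without YS line 2 (-0.94). Glrx5, which takes part in making iron-sulfur clusters, was called higher in YS than BM lines (1.04, limma adjusted p = 0.0167), a call lost without YS line 1 (0.80) or BM line 1 (0.97). Alas2, the erythroid form of the first enzyme, reached 1.50 TPM in BM line 2 and at most 0.31 TPM in the other 8 libraries.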
